A study of Mus musculus with 6 samples.

Results

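The natriuretic peptide system is described here by 7 genes: the peptide precursors Nppa, Nppb and Nppc, the receptors Npr1, Npr2 and Npr3, and the protease Corin. They were listed by symbol, and the RefSeq transcripts of each entry of the expression table were matched to mouse gene names. No filter on their values was used, but earlier results of these data were known when the set was chosen. Each symbol had exactly 1 entry, so the set holds 7 of 23290 entries. RNA was sequenced from whole mouse hearts at E10.5, 3 mutant and 3 control, each from a separate embryo on a C57BL/6 background. Mutant hearts were Nkx2-5Cre/+,Casz1f/f, with floxed alleles of the zinc finger transcription factor gene Casz1 on both chromosomes and Cre recombinase at 1 Nkx2-5 allele. Control hearts were Nkx2-5+/+,Casz1f/+, so both groups carried at least 1 floxed Casz1 allele, and Cre was present in the mutants alone. Nkx2-5 is active in cardiac progenitors and their progeny, and heart cells that do not make Cre keep their Casz1 alleles.

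Natriuretic peptides are hormones made as precursors and cleaved to their active form. Atrial natriuretic peptide, from Nppa, and brain natriuretic peptide, from Nppb, are secreted by heart muscle cells and bind the receptor Npr1, whereas C-type natriuretic peptide, from Nppc, binds Npr2. Both receptors are guanylyl cyclases that make cyclic GMP inside the target cell, while Npr3 lacks the cyclase and takes the peptides up for degradation. In the embryo, Nppa is a classic marker of the forming atrial and ventricular chambers, and Npr3 is known from the endocardium.

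Expression was given as FPKM, fragment numbers divided by transcript length and by library size, so levels of different genes may be set beside each other. Every FPKM, log2 fold change (mutant over control), p and q below is from the authors' deposited table, which combines the 3 hearts of a genotype into 1 value. The spread between hearts and the depth of each library are therefore unknown here, and the standard error (SE) of a fold change is the one implied by the authors' test statistic. A gene was called at the authors' q under 0.05. The targeted gene Casz1 stood at 4.68 FPKM in mutant and 6.61 FPKM in control hearts (q = 1.00), and Nkx2-5 at 82.9 and 143.0 FPKM (log2 -0.79, SE 0.295, q = 0.536), so the genotypes were not told apart by a call at either locus. Heart muscle markers were abundant in both genotypes, with cardiac troponin T (Tnnt2) at 1974 FPKM in mutant and 1975 FPKM in control hearts (log2 95% interval -1.15 to 1.14).

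No member of the natriuretic peptide system was called. Of the 7 genes 6 were tested, 0 rose and 0 fell, and 2 had an unadjusted p under 0.05. Of all 15387 tested entries 0.422% were called, 0.305% higher and 0.117% lower in mutant hearts, and 3.17% had an unadjusted p under 0.05, so 0 calls among 6 genes is near the background. The pair with an unadjusted p under 0.05 was Nppa, with a lower value in mutant hearts (1.18% of tested entries had such a p on the lower side), and Corin, with a higher value there (1.99% on the higher side). The log2 fold changes spread from -0.98 to 0.62 around a median of -0.06, beside a median of -0.02 over all 12150 tested entries that reached 1 FPKM in either genotype. The 95% intervals of 4 members held 0. At the SEs of the members a call needed a difference between 2.04-fold, for Corin, and 2.76-fold, for Nppa, so smaller ones were not detectable as calls.

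**Figure D1:**
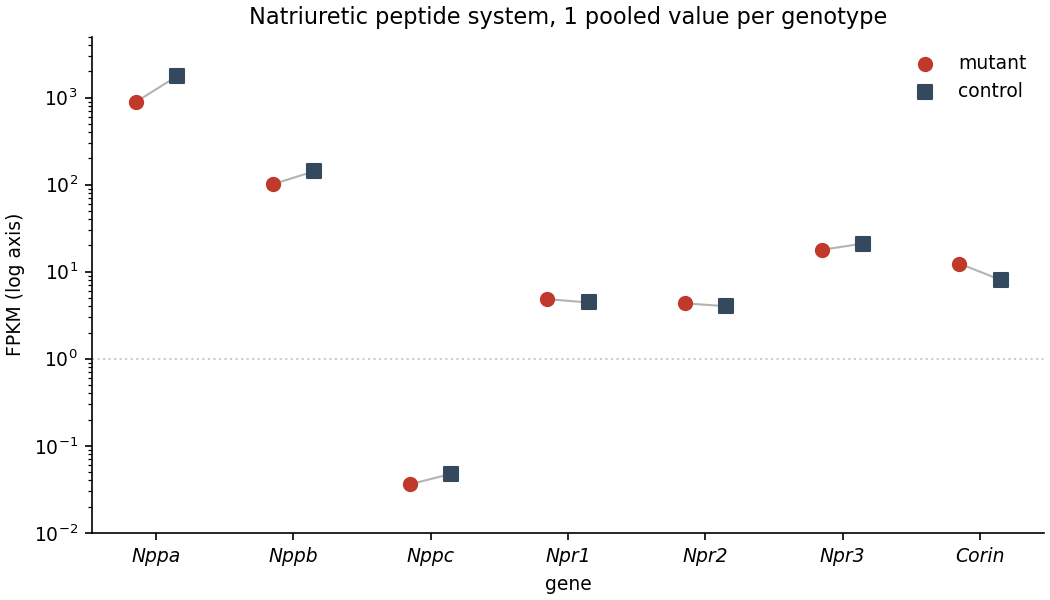
FPKM of each member in mutant (circles) and control (squares) hearts on a log axis, 1 pooled value per genotype with no error bar since no value per heart was given. Nppa is highest in both genotypes at 888 and 1755 FPKM, Nppc lies below 0.1 FPKM in both, and the dotted line marks 1 FPKM.

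Nppa, the gene of atrial natriuretic peptide, was the most abundant member and had the lowest log2 fold change. The authors' deposited table gives 888 FPKM in mutant hearts, 50.6% of the 1755 FPKM in control hearts. This log2 difference of -0.98 (SE 0.392, 95% interval -1.75 to -0.21) had an unadjusted p of 0.0123 and a q of 0.746 and did not pass the authors' test. The largest p that was called in the table was 0.000190. Nppa ranked as entry 93 of 23129 by FPKM in mutant hearts and as entry 19 in control hearts, not counting entries marked as failed or as holding too many fragments. Its share of the summed FPKM was 0.165% in mutant and 0.334% in control hearts.

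Among abundant transcripts the Nppa value was near the low end. Only 85 of 12150 tested entries with at least 1 FPKM had a log2 fold change as low or lower, Nppa included. Among the 854 tested entries with at least 100 FPKM in either genotype 10 did, and among the 203 with at least 500 FPKM 5 did. Several of those entries are small nucleolar RNAs with far larger SEs than Nppa. Called entries among the 10 were the skeletal actin Acta1 and the calcium pump regulator Pln, at log2 -1.23 and -1.20. These positions describe 2 pooled values per gene and carry no test.

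Nppb, the gene of brain natriuretic peptide, was given in the authors' deposited table as 101 FPKM in mutant and 142 FPKM in control hearts. The fold change of -0.49 on the log2 scale (SE 0.288, 95% interval -1.06 to 0.07, the authors' p = 0.0871) was not called, and its interval held 0. Nppa was 8.78 times as abundant as Nppb in mutant hearts and 12.3 times in control hearts. Both genes together summed to 989 FPKM in mutant and 1897 FPKM in control hearts, and Nppa made up 89.8% and 92.5% of these sums. Whether the fold changes of Nppa and Nppb differ was not tested, and their 95% intervals overlap.

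Nppc, the gene of C-type natriuretic peptide, was close to the floor of the measurement. It read 0.0362 FPKM in mutant and 0.0477 FPKM in control hearts in the authors' deposited table and was marked as too low for a test. No fold or direction is given for it. The entry lies on chromosome 1 from 86666293 to 86670573 in mm10.

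Nppa and Nppb are neighbours on the plus strand of chromosome 4. Nppb spans 147985789 to 147987205 and Nppa 148000746 to 148002067 in mm10, with 13.5 kb between them, and each has 3 exons in GENCODE. Casz1 starts 802 kb beyond Nppa on the same chromosome. GENCODE places the antisense gene Gm13054 across part of Nppa. No source used here says whether the authors' counting used strand, so reads of that antisense RNA and of Nppa cannot be told apart.

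The start regions of this pair are shown because they hold matches to the binding motifs of cardiac factors described further on. Both run from 250 bases before to 50 bases after a RefSeq start site on the plus strand of chromosome 4 in GRCm38.p6, chr4:148000472-148000771 for Nppa and chr4:147985650-147985949 for Nppb. Capitals mark every match to the motifs named in the next paragraph.
Nppa: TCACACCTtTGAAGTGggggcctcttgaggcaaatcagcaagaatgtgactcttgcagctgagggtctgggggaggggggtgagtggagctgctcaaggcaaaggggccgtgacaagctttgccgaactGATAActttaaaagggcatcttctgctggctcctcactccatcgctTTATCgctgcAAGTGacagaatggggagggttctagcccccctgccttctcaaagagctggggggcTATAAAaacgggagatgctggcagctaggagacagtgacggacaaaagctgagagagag
Nppb: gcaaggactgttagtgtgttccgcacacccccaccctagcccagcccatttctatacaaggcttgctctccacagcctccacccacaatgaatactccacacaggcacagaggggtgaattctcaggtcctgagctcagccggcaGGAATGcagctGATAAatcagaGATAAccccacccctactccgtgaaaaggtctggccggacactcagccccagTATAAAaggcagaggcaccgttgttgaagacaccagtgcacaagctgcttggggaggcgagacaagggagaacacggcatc

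The motifs were searched on both strands in the 300-base windows of all 7 genes and of 32851 start sites in RefSeq. The T-box element TCACACCT occurred in Nppa, at -250 to -243, and in no other member, against 1.28% of all windows. The NKX2-5 element TNAAGTG lay 1 base further on in Nppa, at -241 to -235, and occurred in 11.5% of all windows. Windows holding both made up 0.183% (60 of 32851). The NKX2-5 core AAGTG, which is part of the longer element, occurred once more in Nppa at -65 to -61 and in 46.4% of all windows. The GATA site GATAA occurred in Nppa at -121 to -117 and, in reverse, at -75 to -71, in Nppb at -94 to -90 and -83 to -79, and in 25.4% of all windows. At least 2 such sites were held by 5.27% of all windows. The M-CAT sequence CATTCC, a TEAD site, occurred in Nppb in reverse, at -105 to -100, and in 14.7% of all windows. No window of the 7 genes matched the CArG box or the MEF2 site. A TATAAA sequence was found in Nppa, Nppb and Nppc and in 13.6% of all windows. In Nppa it starts 9 bases before the RefSeq start site but 33 bases before the start of the authors' entry, and in Nppb the RefSeq start site lies 111 bases inside the authors' entry. The Npr3 window, chr15:11907322-11907621 on the minus strand, lies wholly outside the authors' entry, which ends at 11905674. The lack of matches in that window may therefore not concern the Npr3 transcript that was measured. Only combinations that Nppa holds were counted over all windows, so the shares of windows holding them carry no test. Matches to these motifs describe letters in the windows and show no binding.

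Corin, the transmembrane serine protease that cleaves the precursor of atrial natriuretic peptide, had the highest log2 fold change of the members. The authors' deposited table has it at 12.4 FPKM in mutant and 8.06 FPKM in control hearts. On the log2 scale the difference was 0.62 (SE 0.276, 95% interval 0.08 to 1.16), and it was not called (the authors' p = 0.0246, q = 1.00). Of 12150 entries with at least 1 FPKM, 287 (2.36%) had a log2 fold change as high or higher. Nppa was 71.7 times as abundant as Corin in mutant hearts and 218 times in control hearts. Corin lies on chromosome 5 from 72300025 to 72504540, where GENCODE has 5 other genes within its span, among them the antisense gene Gm20647.

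**Figure D2:**
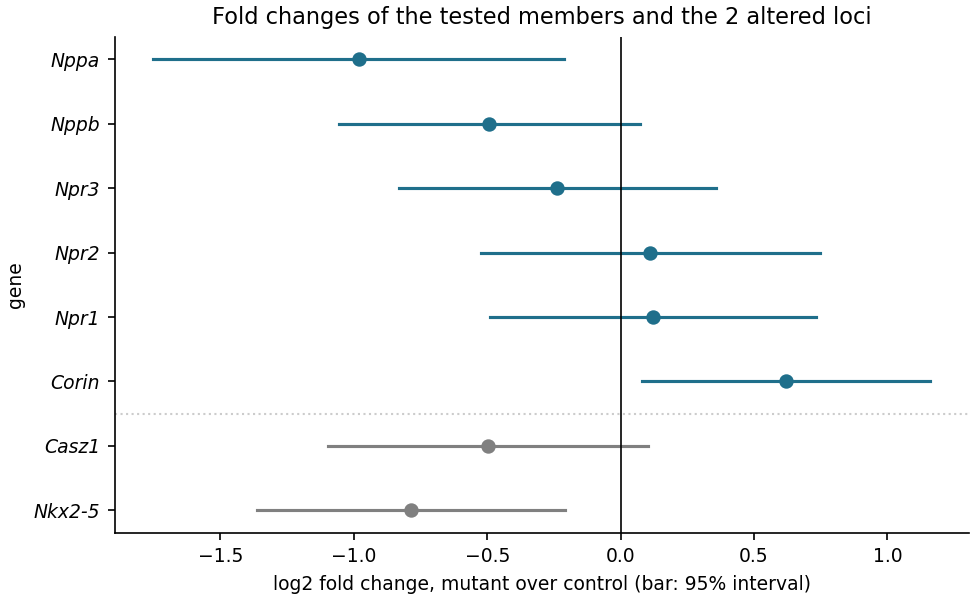
Log2 fold change (mutant over control) of the 6 tested members, with Casz1 and Nkx2-5 under the dotted line. Bars are 95% intervals from the SE implied by the authors' test. Nppa at -0.98 and Corin at 0.62 are the members whose intervals leave out 0.

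The 3 receptor genes were present in both genotypes at levels far below Nppa and Nppb and above Nppc. Npr3, the clearance receptor, was the most abundant of them, with 17.9 FPKM in mutant and 21.0 FPKM in control hearts (log2 -0.24, SE 0.304, 95% interval -0.83 to 0.36, the authors' p = 0.436). Npr1, the cyclase receptor of the atrial and brain peptides, had 4.83 FPKM in mutant and 4.44 FPKM in control hearts (log2 0.12, SE 0.311, 95% interval -0.49 to 0.73). Npr2, the cyclase receptor of the C-type peptide, had 4.33 FPKM in mutant and 4.01 FPKM in control hearts (log2 0.11, SE 0.325, 95% interval -0.52 to 0.75). None of the 3 was called, and each interval held 0. Intervals this wide do not show equal levels in the 2 genotypes.

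The order of levels was Nppa, Nppb, Npr3, Corin, Npr1, Npr2 and Nppc in both genotypes. Npr1 and Npr2 were closest, with Npr1 at 1.11 times the FPKM of Npr2 in both. With no value per heart, it is unknown which neighbours in this order differ beyond the spread between hearts. Npr3 was 3.70 times as abundant as Npr1 in mutant and 4.74 times in control hearts, and it made up 66.1% and 71.4% of the summed FPKM of the 3 receptors. Nppa exceeded its cyclase receptor Npr1 by 184 times in mutant and 396 times in control hearts. Npr3 lies on chromosome 15 from 11839897 to 11905674, Npr1 on chromosome 3 from 90450592 to 90465866, and Npr2 on chromosome 4 from 43631935 to 43651240. GENCODE has 1 gene on the opposite strand overlapping each receptor gene, Gm5144 at Npr3, Gm16048 at Npr1 and Gm12473 at Npr2.

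**Figure D3:**
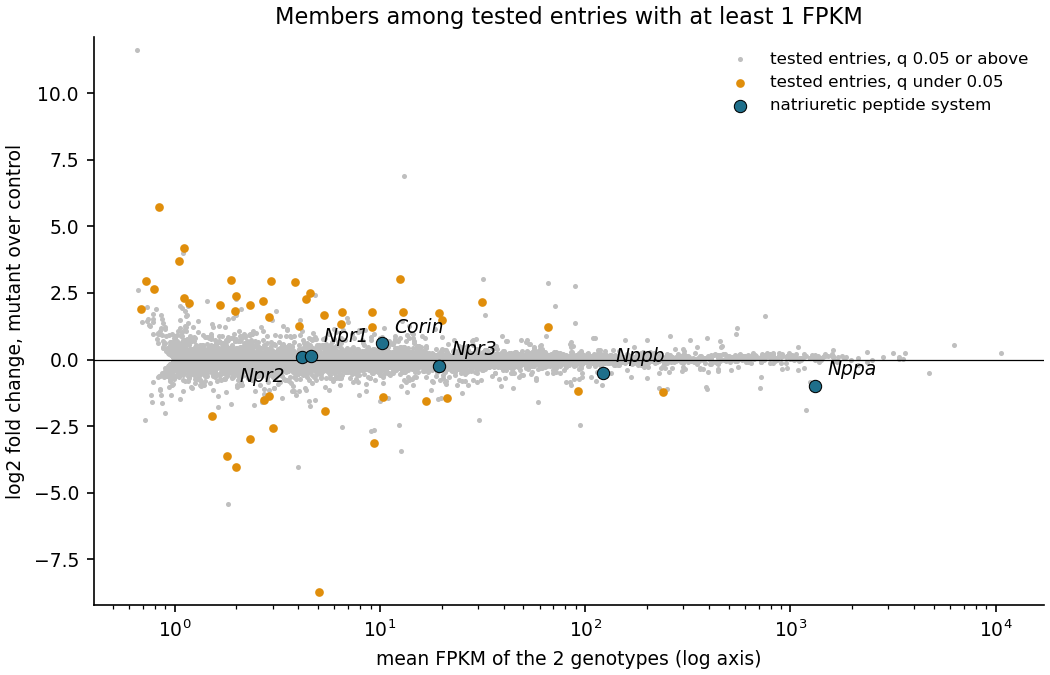
Log2 fold change (mutant over control) against the mean FPKM of the genotypes (log axis) for the 12150 tested entries with at least 1 FPKM, with called entries in orange and the 6 tested members in blue. Nppa lies below nearly all entries of like abundance, while Npr1, Npr2 and Npr3 lie within the band of uncalled entries.

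In the enzymes that process or clear the peptides, 1 gene fell. Of 8 listed genes 7 were tested, 0 rose and 1 fell, beside 0.117% of all tested entries called lower. The median log2 fold change was -0.19. Pcsk6, a proprotein convertase known to activate Corin, fell to 2.24 FPKM in mutant hearts, against 8.53 FPKM in control hearts (log2 -1.93, SE 0.329, the authors' q = 5.9e-06). Pcsk6 also processes TGF-beta family ligands. Furin, the convertase that cleaves the precursors of the brain and C-type peptides, stood at 34.5 FPKM in mutant and 33.8 FPKM in control hearts. Neprilysin (Mme), which degrades natriuretic peptides, had 4.44 FPKM in mutant and 3.98 FPKM in control hearts, and the insulin-degrading enzyme Ide had 20.9 and 21.9 FPKM. Ece1, an endothelin-converting enzyme, had 49.3 FPKM in mutant and 56.3 FPKM in control hearts. Dpp4, a peptidase that trims brain natriuretic peptide, had 1.91 FPKM in mutant and 2.97 FPKM in control hearts (log2 -0.64, the authors' p = 0.0790). Osteocrin (Ostn), a further ligand of Npr3, was marked as too low for a test.

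Downstream of the receptors, 1 of the cyclic GMP genes rose. Of 25 listed genes 22 were tested, 1 rose and 0 fell, beside 0.305% of all tested entries called higher. The median log2 fold change was 0.01. Mrvi1, which links cyclic GMP-dependent kinase to calcium release in smooth muscle, rose to 10.1 FPKM in mutant hearts, against 2.92 FPKM in control hearts (log2 1.79, SE 0.307, the authors' q = 5.9e-06). Pde1b, a calcium-dependent phosphodiesterase, had 4.84 FPKM in mutant and 2.20 FPKM in control hearts (log2 1.14, SE 0.360, the authors' p = 0.00152, q = 0.191) and was not called. The kinase gene Prkg1 had 6.05 FPKM in mutant and 4.58 FPKM in control hearts (log2 0.40, the authors' p = 0.236). Pde5a, the cyclic GMP-specific phosphodiesterase, had 2.84 and 2.41 FPKM in mutant and control hearts. The most abundant listed genes were Vasp, a kinase substrate, at 73.5 FPKM in mutant and 80.1 FPKM in control hearts, Pde6d at 40.8 and 43.9 FPKM, and Ppp1r12a, a myosin phosphatase subunit, at 18.8 and 19.6 FPKM. The nitric oxide-sensitive cyclase subunits Gucy1a3 and Gucy1b3 had log2 fold changes of 0.01 and 0.24.

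Mrvi1 is a smooth muscle gene, and markers of other cell types moved in the same comparison. Of 8 smooth muscle markers 2 rose, Actg2 and Lmod1, and 0 fell, while 4 had a higher and 4 a lower value in mutant hearts. All 4 with a higher value had an unadjusted p under 0.05, and 0 of those with a lower value did. The median log2 fold change was 0.58 over all 8, and -0.03 over the 7 with at least 1 FPKM. FPKM of all 8 summed to 1337 in mutant and 971 in control hearts. This difference was smaller than that of the uncalled marker Tagln alone, at 767 and 333 FPKM. Of 8 foregut endoderm markers 5 rose and 0 fell, with sums of 19.3 FPKM in mutant and 4.08 FPKM in control hearts. Macrophage and platelet markers summed to 42.5 FPKM in mutant and 98.0 FPKM in control hearts, and 1 of 6 tested fell, Lyz2. All 6 had a lower value in mutant hearts. The largest part of the difference between the sums came from the uncalled marker Pf4, at 28.8 FPKM in mutant and 60.5 FPKM in control hearts. Csf1r and Aif1 had log2 -0.30 and -0.25 (the authors' p = 0.496 and 0.714). Of all tested entries 0.305% were called higher and 0.117% lower. Marker lists were chosen with earlier results of these data known, so these shares carry no test. No tested marker of these lists was at 0 in either genotype. Their part in the values of Mrvi1 and Pcsk6 was not tested.

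Of the transcription factors known to act on Nppa, none was called. Of 19 tested factors 0 rose and 0 fell, and 3 had an unadjusted p under 0.05, beside 3.17% of all tested entries. The median log2 fold change of the factors was -0.07. Nkx2-5, a direct activator of Nppa, had the lowest value at log2 -0.79 (the authors' p = 0.00755), and the mutants carry Cre at 1 of its alleles. No control carried that Cre allele, so its part in the Nppa value and that of the Casz1 genotype cannot be told apart. Hey2, a ventricular repressor, had 15.6 FPKM in mutant and 25.0 FPKM in control hearts (log2 -0.68, SE 0.284, the authors' p = 0.0166). Nr2f2, an atrial factor, had 13.8 FPKM in mutant and 8.43 FPKM in control hearts (log2 0.71, SE 0.290, the authors' p = 0.0151). Gata4, another activator, had 74.4 FPKM in mutant and 80.3 FPKM in control hearts, and Hand2 had 78.5 and 78.2 FPKM. Tbx5, which acts together with Nkx2-5 on Nppa, had log2 0.16. The repressors Tbx2 and Tbx3, which keep Nppa off in the atrioventricular canal, had log2 0.28 and 0.30 (the authors' p = 0.346 and 0.394). Over all pathway lists together 2 of 48 tested genes were called (4.17%), beside 0.422% of all tested entries. The lists were chosen with earlier results of these data known, so these shares carry no test.

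Nppa and Nppb were then set beside markers of the heart muscle that makes them. Of 22 chamber and trabecular genes 0 rose and 1 fell, Pln, while 19 had a value below 0, and the median log2 fold change was -0.34. An unadjusted p under 0.05 was held by 7 of the 22, all with a lower value in mutant hearts. Of all tested entries 1.18% had such a p on the lower side and 1.99% on the higher side. The chamber list was likewise chosen with earlier results of these data known, so these shares carry no test. The log2 fold change of Nppa was lower than that of 18 of these 22 genes and that of Nppb lower than that of 15, while Corin lay above all 22. Ventricular markers had a median of -0.42 over 8 genes, with Myl2, the ventricular light chain, at 3942 FPKM in mutant and 5549 FPKM in control hearts. Atrial markers had a median of 0.29 over 7 genes, with the atrial light chain Myl7 at 7496 FPKM in mutant and 5080 FPKM in control hearts (log2 0.56, the authors' p = 0.351). That median is the value of Sln, at 2.13 FPKM in mutant and 1.75 FPKM in control hearts (SE 0.636). Of the 7 atrial genes 6 had a higher value and 1 a lower one, Gja5 at log2 -0.49. Sln and Gja5 are in the chamber list too. Neither the ventricular nor the atrial list held a called gene. An unadjusted p under 0.05 was held by 3 of the 8 ventricular genes, all lower in mutant hearts. Of these, Irx4 and Kcne1 are in the chamber list too. Such a p was held by 2 of the 7 atrial genes, Nr2f1 and Nr2f2, both higher. Nppa is made in both chamber types, and the part of chamber proportions in its value was not tested.

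Ratios of members to the chamber list genes Tnnt2 and Actn2 were also formed. Tnnt2 had log2 -0.0006 (SE 0.584), so the ratio to it repeats the Nppa value. Of the 22 chamber genes 4, Pln among them, had a lower log2 fold change than Nppa. A ratio of Nppa to those would be higher in mutant hearts. The ratio of Nppa to Tnnt2 was 0.450 in mutant and 0.889 in control hearts, and that of Nppa to the sarcomeric actinin gene Actn2 was 4.26 and 6.74. Nppb over Actn2 was 0.486 in mutant and 0.547 in control hearts. Corin over Tnnt2 was 0.00628 in mutant and 0.00408 in control hearts. These ratios rest on pooled values and carry no test. In whole hearts, fewer cells of a type and less RNA per cell cannot be told apart.

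Endothelial and endocardial markers, the setting in which Npr3 is known, had a median of -0.16 over 12 genes. All 12 had a value below 0, from -0.43 to -0.11, and 0 were called. Npr3, at log2 -0.24, lay within that range. Their FPKM summed to 427 in mutant and 482 in control hearts.

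**Figure D4:**
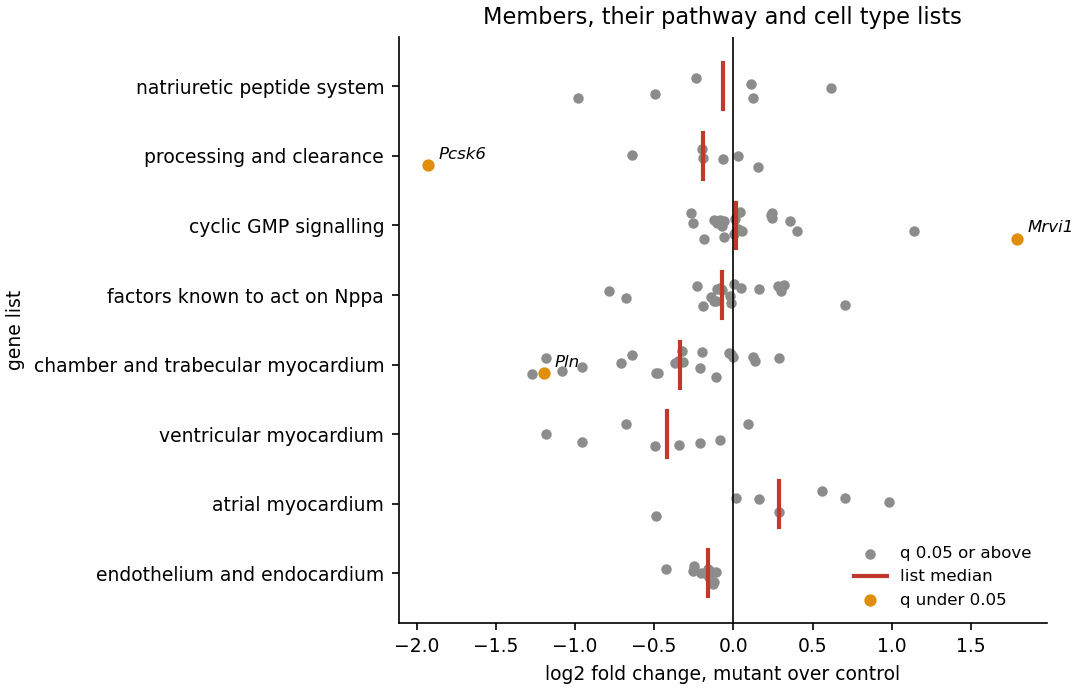
Log2 fold change (mutant over control) of each tested gene in the natriuretic peptide system and 7 of the gene lists, with list medians as red bars and called genes in orange. Called genes in the lists drawn are Pcsk6, Mrvi1 and Pln, the members of the natriuretic peptide system lie from -0.98 to 0.62, and the chamber and ventricular medians lie at -0.34 and -0.42.

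The genes around Nppa and Nppb had values on both sides of 0, and whether they differ from each other was not tested. Within 500 kb of the pair 24 other entries were found, of which 23 were tested. Among the tested ones 1 was called, beside 0.422% of all tested entries, and 2 had an unadjusted p under 0.05, beside 3.17%. A value above 0 was held by 9 and one below by 14, and the median log2 fold change was -0.09. Clcn6, the nearest entry on the far side of Nppa, had 5.69 FPKM in mutant and 5.12 FPKM in control hearts (log2 0.15). Agtrap, which encodes an angiotensin receptor-associated protein, lies 76.3 kb from the Nppa start and had 4.39 FPKM in mutant and 7.36 FPKM in control hearts (log2 -0.75, SE 0.306, the authors' p = 0.0148, q = 0.824). The called entry among them was Fbxo44, an F-box gene 152 kb away, which fell to 0.270 FPKM in mutant hearts, against 3.31 FPKM in control hearts (log2 -3.62, SE 0.553, the authors' q = 1.18e-07). Its neighbours Fbxo6 and Fbxo2 are related genes, with 11.7 FPKM in mutant and 10.04 FPKM in control hearts for Fbxo6 (log2 0.22) and 0.149 and 0.340 FPKM for Fbxo2 (log2 -1.19). The part of shared reads in these values was not tested.

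**Figure D5:**
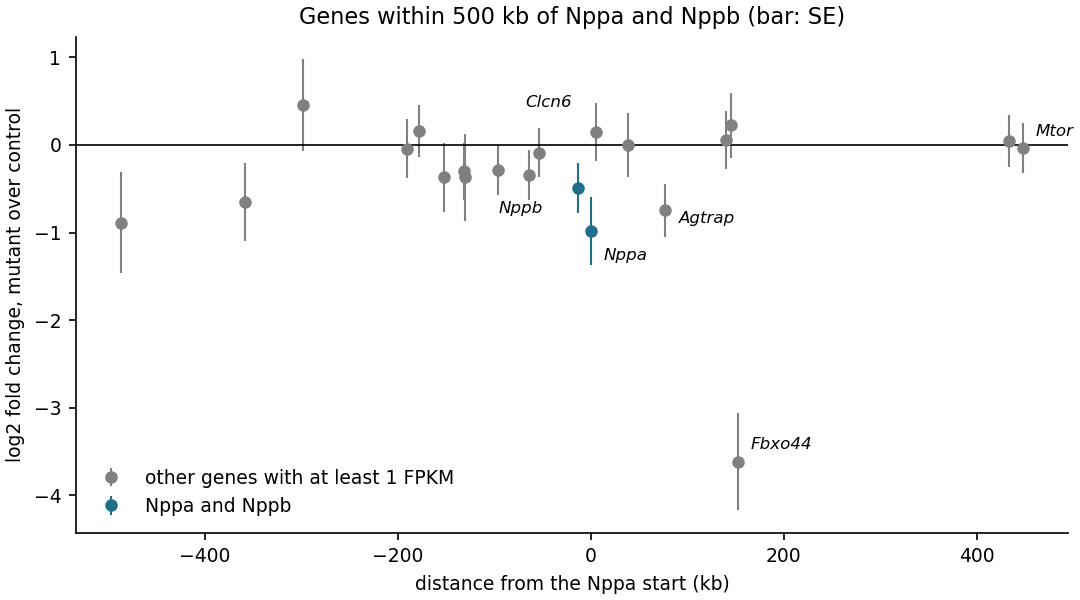
Log2 fold change (mutant over control, bars are SE) of entries with at least 1 FPKM within 500 kb of Nppa and Nppb, against distance from the Nppa start in kb. Nppb at -0.49 and Nppa at -0.98 are in blue, Clcn6 beside them is at 0.15, and Fbxo44 is lowest at -3.62.

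The genes with fold changes most like those of Nppa and Nppb were sought among 828 other named entries with at least 100 FPKM in either genotype. For Nppa the nearest was Casq1, a calsequestrin of the sarcoplasmic reticulum, at 82.2 FPKM in mutant and 160 FPKM in control hearts (log2 -0.97, SE 0.296, the authors' p = 0.00110, q = 0.153). Next came the small nucleolar RNAs Snora5c, Snord49b and Snord72, whose SEs of 7.57 to 15.4 make their values uninformative, and Cited1, a ventricular transcriptional coactivator, at log2 -1.08. For Nppb the nearest were Fxyd1, a sodium pump regulator, at 79.8 FPKM in mutant and 112 FPKM in control hearts, the light chain Myl2, Mir2861, the small heat shock protein gene Hspb7 and the globin gene Hbb-b2, with log2 fold changes from -0.50 to -0.48. Likeness here is the difference between log2 fold changes over 2 pooled values per gene.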

How the data were processed

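RNA of 6 hearts was measured, 3 mutant and 3 control. The submitters' processing notes name TopHat2 2.0.8, Bowtie2 2.1.0.0, Cufflinks 2.1.1, Cuffdiff and mm10. FPKM values were computed by the authors as 1 value per genotype, per the file headers. The deposited log2 fold change and test statistic are scores in which a placeholder number stands for an infinite fold. The deposited p-values and q-values are those of Cuffdiff. Library normalization and strand use are not given in the sources used here. Depth is unknown, which leaves no counting interval.

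Of 23290 entries 99.3% were named through RefSeq and GENCODE tables. Cuffdiff tested 15387, and entries marked as too low, failed or with too many fragments were left out of tests. For each of the 15301 tested entries with a finite fold, p equalled the two-sided normal tail probability of its statistic to within 1e-05, so SE was taken as the log2 fold change divided by the statistic, in size. Whether this SE matches the spread between hearts was not tested, since no value per heart was given. The implied SEs are wide beside the scatter of genes (robust SD of the statistic 0.360). Members, gene lists and alternatives were chosen with earlier results of these data known. All members were named, with called, unadjusted p under 0.05 and most abundant genes of each pathway list, and further genes after their values were seen. Start coordinates count from 1. Python 3.11.15, numpy 2.4.6, pandas 2.3.3, scipy 1.17.1 and matplotlib 3.10.9 were used.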

Additional observations from a re-analysis of the deposited data

How the results depend on the processing

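The count of called members stayed at 0 with q under 0.10 and with p adjusted over entries of at least 1 FPKM, and was 2 (Nppa and Corin) at an unadjusted p under 0.05. A 1.5-fold minimum on top of q could only give 0 as well. Each of the 6 tested members kept its direction and stayed uncalled after centring by the median of tested entries with at least 1 FPKM (-0.02) and stayed uncalled with the narrower adjustment, with adjusted p of at least 0.786. Pseudocounts of 0.1 and 1 FPKM, for which no p was recomputed and which cannot turn a direction, and centring moved log2 fold changes by at most 0.06. Counts of called pathway genes did not change with q under 0.10 or the narrower adjustment. No paired analysis was possible because the table holds 1 pooled value per genotype, so no heart could be left out either.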
